A study of Gallus gallus with 3 samples.

Results

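Genes of the TNF receptor family were described in DT40, a chicken line of transformed bursal B cells, across SRSF1-3 knock-in clones and their control. Of the 11877 genes in the count table, 15 were named CD40 or TNFRSF followed by a number, and 14 of these had at least 30 counts summed over the 3 libraries. Because that was more than 10, the 10 with the highest summed count were kept and TNFRSF13C was added by name, which gave 11 genes. The kept genes were therefore chosen by their level in these libraries, so their being detected is not a result. At the edge of the first 10 genes, TNFRSF4 was kept with 302 summed counts and TNFRSF11A was not, with 263. TNFRSF13C was added with 38 summed counts.

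Receptors of this family span the membrane, bind trimeric ligands of the TNF family and have no enzyme activity of their own. They pass the signal on through TRAF adaptors, or through death domain adaptors such as TRADD and FADD, to NF-kB, to MAP kinases or to caspase-8. In B cells, CD40 receives help from T cells, while TNFRSF13B (TACI) and TNFRSF13C (the BAFF receptor) bind the survival factor BAFF, encoded by TNFSF13B. The roles given below are known mainly from human and mouse.

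The knock-in group held 2 libraries, clone 41 and clone 47, each from 1 clone labelled as carrying an SRSF1-3 knock in. The control group held 1 library of untransfected cells of the same DT40-ASF line. All libraries came from cells labelled as reconstituted, grown in medium with bovine and chicken serum. From general knowledge and not from the labels, DT40-ASF cells lack intact chicken SRSF1 and live on a human SRSF1 transgene, a background that clones and control share. SRSF1 is a splicing regulator, and SRSF1-3 is one of its splice isoforms. Transfection and clonal history differ along with the knock-in, so these cannot be told apart. Each clone was represented by a single library, so the only spread between replicates is that between these 2 libraries. The p-values rest on this spread after the fit shares it across all genes.

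Total counts ranged from 41760372 to 44868987 per library. The count of SRSF1 was 1991 in clone 41 and 5645 in clone 47, against 1402 in the control. Its ratio to the control was 1.58 in clone 41 and 4.16 in clone 47. It did not pass the test described below (edgeR unadjusted p = 0.0106, adjusted p = 1.00). Whether counts under this symbol include the transgene or the knocked-in isoform was not tested. The B cell identity of the line was checked on 24 marker genes, of which 21 were in the count table and all 21 were tested. PAX5, the transcription factor that defines B cells, lay between 16.5 and 16.8 FPKM (deposited values, scaled for transcript length and library size) in the 3 libraries. In clone 47, 7 of the 21 were at least 2-fold lower than the control (7.57% of all tested genes). Among them were BTK at a ratio of 0.420, BACH2 at 0.455, BLNK at 0.470, POU2AF1 at 0.477 and LYN at 0.492. In clone 41 it was 2 of the 21 (5.55% of all tested genes). Of the 21, 9 were below the control in both clones, 4 above it in both and 8 on opposite sides. Over all tested genes these shares were 25.9%, 25.9% and 48.1%. CD72 was among those above the control in both, at a ratio of 1.92 in clone 41 and 1.26 in clone 47. The summed level of the B cell markers was 1941 CPM (counts relative to library size, scaled by TMM) in clone 41 and 1328 CPM in clone 47, against 1939 CPM in the control. T and NK cell markers summed to 26.5 CPM in clone 41 and 37.2 CPM in clone 47, against 44.3 CPM in the control. Of the 13 in the table, 4 had under 10 counts over all libraries, CD4 among them. Others were detected and differed in direction. CD8A had 359 counts in clone 41 and 920 in clone 47, against 1011 in the control. CD3D had 296 in clone 41 and 232 in clone 47, against 268 in the control. CD28 had 45 in clone 41 and 28 in clone 47, against 225 in the control. LCK had 5 in clone 41 and 113 in clone 47, against 12 in the control. Myeloid markers summed to 102 CPM in clone 41 and 142 CPM in clone 47, against 86.4 CPM in the control, and the defining gene CSF1R had at most 1 count in a library. The detected myeloid markers differed in direction in clone 47. MPO had 136 counts in clone 41 and 799 in clone 47, against 164 in the control, and CEBPB had 2415 in clone 41 and 5140 in clone 47, against 2620 in the control. CTSS had 1549 counts in clone 41 and 215 in clone 47, against 1098 in the control. Plasma cell markers summed to 2327 CPM in clone 41 and 1553 CPM in clone 47, against 2996 CPM in the control. Most of this was JCHAIN, at 1677 CPM in clone 41 and 1079 CPM in clone 47, against 2450 CPM in the control. Of the 6 plasma cell markers, 4 were below the control in both clones (25.9% of all tested genes). XBP1 was above the control in both clones, and SDC1 lay on opposite sides of it. Fibroblast and epithelial markers, nearly all of them COL1A2, summed to 29.8 CPM in clone 41 and 17.1 CPM in clone 47, against 20.5 CPM in the control. Of the erythroid and thrombocyte markers, GP1BB had 69 counts in clone 41 and 644 in clone 47, against 69 in the control, while GP9, the other one in the table, had at most 1 count. Whether these marker levels bear on the receptor values was not tested.

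Within the family, TNFRSF13B had lower values in both knock-in clones, at 0.574 times the control in clone 41 and 0.436 times in clone 47. TNFRSF18 was far lower in clone 47 and close to the control in clone 41, CD40 was higher in clone 47 and close to the control in clone 41, and TNFRSF25 lay on opposite sides of the control in the 2 clones. None of the 11 genes passed edgeR's quasi-likelihood test for knock-in against control, which across all 10203 genes called 0 genes, or 0% (Benjamini-Hochberg adjusted p below 0.05). Each of the 11 had an adjusted p = 1.00 in that fit. At an unadjusted p below 0.05 there were 81 genes, or 0.794% of those tested, and 0 of the 11. If no gene differed, a fraction near 0.05 of the tested genes would be expected there. The fit is thus conservative, and a gene or list that does not pass it may still differ. DESeq2 called 2 genes and the legacy form of edgeR's test also 2, with 0 of the 11 among them. With 1 residual degree of freedom, the fit takes its spread from the clones, shares it across genes and applies it to the single control library. All folds below are therefore descriptions of these libraries. Ratios of scaled counts carry exact binomial 95% intervals, which cover only the error of counting, as reads copied by PCR do not count separate molecules. In bulk RNA, fewer cells carrying a transcript and less of it per cell cannot be told apart.

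**Figure D1:**
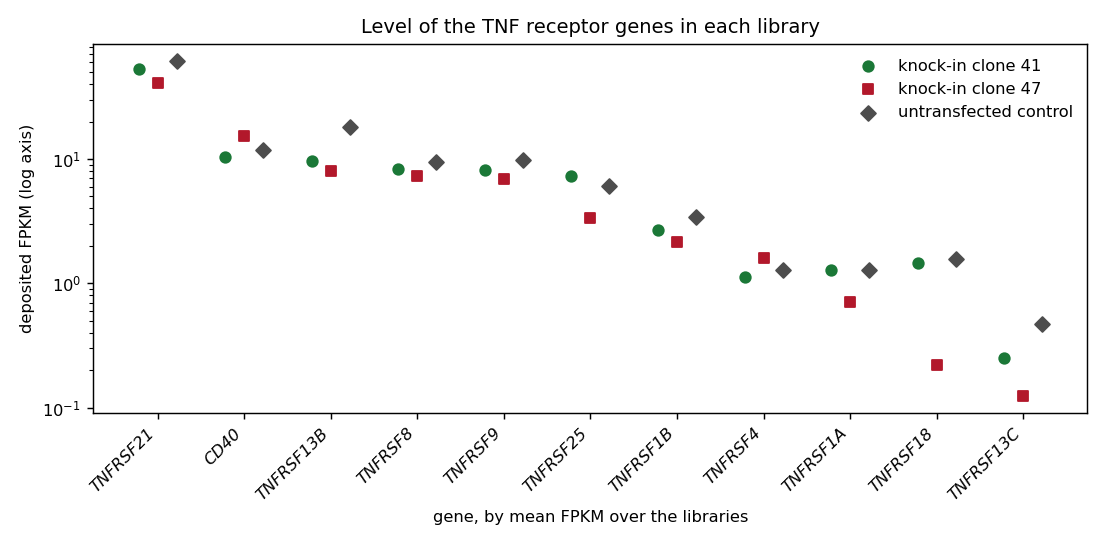
Deposited FPKM (log axis) of the 11 TNF receptor genes, ordered by mean FPKM, in knock-in clone 41, knock-in clone 47 and the untransfected control, 1 point per library. TNFRSF21 lies above the other genes in every library, and TNFRSF18 lies at 0.219 FPKM in clone 47.

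Levels per transcript length were compared on the deposited FPKM. TNFRSF21 (death receptor 6), a death domain receptor that restrains B cell responses in mice, was at 53.0 FPKM in clone 41 and 40.9 FPKM in clone 47, against 61.6 FPKM in the control. It ranked first of the 11 in each library, and its lowest library stood above the highest library of CD40, at 15.4 FPKM. In the control its level was at percentile 89.2 of the genes in the FPKM table. CD40, TNFRSF13B, TNFRSF8, TNFRSF9 and TNFRSF25 followed, with library values between 3.36 and 18.0 FPKM. Each of these overlapped its neighbour in its range over the libraries. Within libraries, TNFRSF25 ranked sixth of the 11 in all 3, while CD40 changed places with TNFRSF13B, and TNFRSF8 with TNFRSF9, in the control. TNFRSF1B was next at 2.17 to 3.38 FPKM, and it overlapped TNFRSF25 but not TNFRSF4 below it. TNFRSF4, TNFRSF1A and TNFRSF18 overlapped each other at 0.219 to 1.61 FPKM. Of the 11, TNFRSF13C was lowest in every library, at 0.253 FPKM in clone 41 and 0.124 FPKM in clone 47, against 0.473 FPKM in the control. The others were kept for their high counts and TNFRSF13C by name, so its last place is partly set by the choice of genes. Outside the 11, TNFRSF11B was lower still, at 0.00876 FPKM in clone 41 and 0.0682 FPKM in clone 47, against 0.0573 FPKM in the control.

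The receptors of BAFF were examined together. TNFRSF13B, whose signal promotes class switching and limits B cell numbers, had 644 counts in clone 41 and 528 in clone 47, against 1251 in the control. Both clones were thus below the control, and clone 47 was the lower. Scaled to library size, clone 41 had 15.9 CPM and clone 47 had 12.1 CPM, against 27.8 CPM in the control. The ratio to the control was 0.574 in clone 41 (interval 0.521 to 0.632) and 0.436 in clone 47 (interval 0.393 to 0.483). Of all tested genes, 7.52% had a log2 ratio at or below that of TNFRSF13B in clone 41 and 5.36% in clone 47. The fitted log2 fold change was -0.99 (SE 0.60; edgeR unadjusted p = 0.114), which did not pass the test. Each SE given here was worked back from that test, as the size of the fold change divided by the square root of the F statistic. The deposited FPKM gave ratios of 0.530 in clone 41 and 0.442 in clone 47.

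TNFRSF13C, the receptor that carries the survival signal of BAFF in mature mouse and human B cells, was near the limit of detection. It had 9 counts in clone 41 and 7 in clone 47, against 22 in the control. The ratio was 0.456 in clone 41, with an interval of 0.185 to 1.03 that includes 1. In clone 47 it was 0.329 (interval 0.119 to 0.797). The fitted log2 fold change of -1.34 had an SE of 1.53, larger than itself.

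The ligand gene TNFSF13B was itself detected in these B cells. It had 533 counts in clone 41 and 459 in clone 47, against 965 in the control. Its ratio to the control was 0.616 in clone 41 (interval 0.553 to 0.685) and 0.492 in clone 47 (interval 0.439 to 0.550), and it did not pass the test (fitted log2 fold change -0.85, SE 0.63). The ligand and TNFRSF13B thus both lay below the control in each clone, and both comparisons rest on the same control library.

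**Figure D2:**
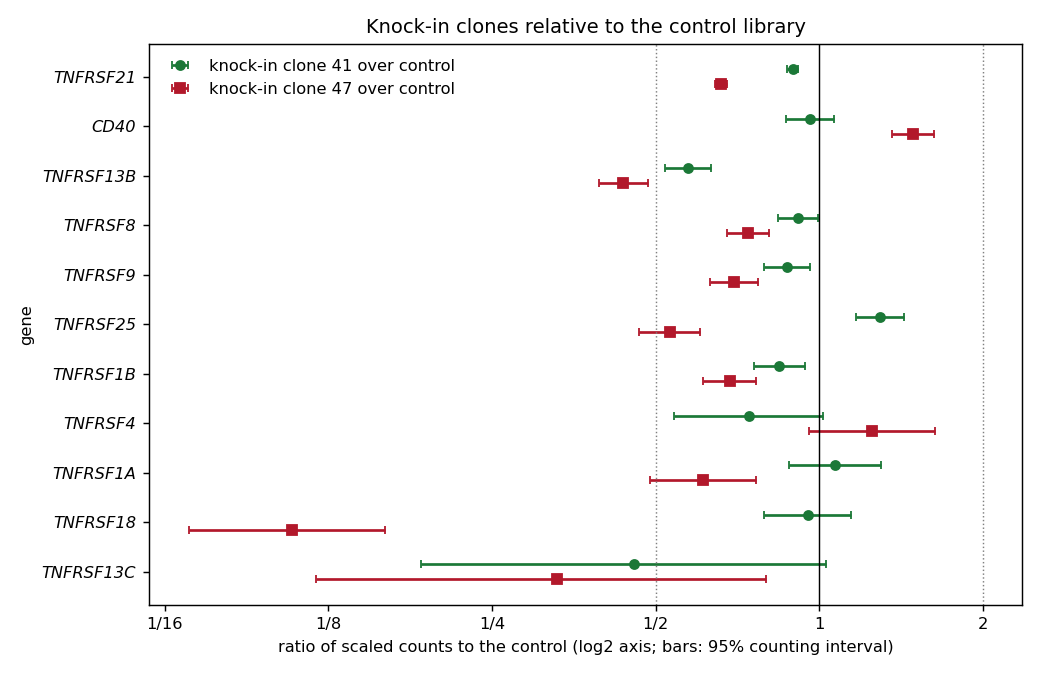
Ratio of scaled counts to the control for the 11 TNF receptor genes in knock-in clone 41 (circles) and clone 47 (squares), on a log2 axis, with 95% intervals of counting error, and dotted lines at 2-fold. TNFRSF13B lies below 1 in both clones, TNFRSF18 lies at 0.107 in clone 47 and near 1 in clone 41, and CD40 lies above 1 in clone 47.

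CD40, the receptor for the T cell ligand CD40LG and a driver of B cell activation, was higher than the control in clone 47. It had 708 counts in clone 41 and 1180 in clone 47, against 819 in the control. Clone 47 was the highest library, while clone 41 lay close to the control. The ratio was 0.964 in clone 41 (interval 0.870 to 1.07) and 1.49 in clone 47 (interval 1.36 to 1.63). Between the clones, clone 47 had 1.55 times the level of clone 41 (interval 1.41 to 1.70). By FPKM the ratio of clone 47 to the control was smaller, at 1.31. The fitted log2 fold change over both clones was 0.30 (SE 0.62). The ligand gene CD40LG had 0 counts in clone 41, 1 in clone 47 and 2 in the control. A count of 0 in clone 41 allows up to 0.0742 CPM, so expression of the ligand was not detectable at this depth in that library.

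The costimulatory receptors TNFRSF18, TNFRSF4, TNFRSF9 and TNFRSF8 are best known from activated T cells in mammals. TNFRSF18 (GITR) showed the lowest ratio of the 11 genes in clone 47. It had 223 counts in clone 41 and 27 in clone 47, against 261 in the control. Clone 41 stayed close to the control and clone 47 stood alone. The ratio was 0.952 in clone 41 (interval 0.793 to 1.14) and 0.107 in clone 47 (interval 0.0691 to 0.159). Of the tested genes, 0.412% had a log2 ratio to the control in clone 47 at or below that of TNFRSF18. The fitted log2 fold change over both clones was -0.93 (SE 0.92).

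TNFRSF4 (OX40) is the protein-coding gene next to TNFRSF18 in RefSeq's gene annotation of GRCg7b, where the 2 do not overlap. Their overlap was not checked in galGal4, the build named for these libraries. TNFRSF4 had 70 counts in clone 41 and 127 in clone 47, against 105 in the control. The ratio was 0.743 in clone 41 (interval 0.541 to 1.02) and 1.25 in clone 47 (interval 0.958 to 1.63), and both intervals include 1. In clone 47, TNFRSF18 was thus far below the control, while the side of TNFRSF4 is not settled.

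TNFRSF9 (4-1BB) had 746 counts in clone 41 and 642 in clone 47, against 952 in the control. Both clones were modestly below the control, at ratios of 0.873 (interval 0.793 to 0.962) in clone 41 and 0.697 (interval 0.630 to 0.771) in clone 47. TNFRSF8 (CD30), a marker of activated lymphocytes, had 971 counts in clone 41 and 849 in clone 47, against 1185 in the control. Its ratios were 0.913 in clone 41 (interval 0.838 to 0.995) and 0.741 in clone 47 (interval 0.677 to 0.809), so it too lay below the control in both libraries.

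The receptors of TNF itself were TNFRSF1B and TNFRSF1A. TNFRSF1B, which has no death domain, is the next protein-coding gene to TNFRSF8 in the same RefSeq annotation. It had 585 counts in clone 41 and 511 in clone 47, against 772 in the control. Its ratios were 0.845 in clone 41 (interval 0.757 to 0.942) and 0.684 in clone 47 (interval 0.611 to 0.766). These were near those of TNFRSF8, but nearer those of TNFRSF9, at 0.873 in clone 41 and 0.697 in clone 47. TNFRSF9 is not next to TNFRSF1B in that annotation, so the likeness is not particular to the neighbouring genes. TNFRSF1A, the death domain receptor of TNF, had 207 counts in clone 41 and 128 in clone 47, against 216 in the control. Its ratio was 1.07 in clone 41, with an interval of 0.879 to 1.30 that includes 1, and 0.613 in clone 47 (interval 0.488 to 0.766). By FPKM the ratio in clone 41 was 0.997, so its side of the control in that library is not settled.

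The other death domain receptors were TNFRSF25 and TNFRSF21. TNFRSF25 (death receptor 3) had 813 counts in clone 41 and 360 in clone 47, against 701 in the control. Clone 41 was the highest library and clone 47 the lowest. The ratio was 1.29 in clone 41 (interval 1.17 to 1.43) and 0.531 in clone 47 (interval 0.466 to 0.604), and clone 47 had 0.411 times the level of clone 41 (interval 0.362 to 0.465). The fitted log2 fold change over both clones was -0.14 (SE 0.68).

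TNFRSF21 had 11806 counts in clone 41 and 9409 in clone 47, against 14733 in the control, and it held between 68.3% and 70.3% of the counts of the 11 genes in each library. Its ratio was 0.893 in clone 41 (interval 0.872 to 0.915) and 0.660 in clone 47 (interval 0.643 to 0.677). These narrow intervals reflect its depth, and the spread between the clones was far wider than either. The fitted log2 fold change was -0.36 (SE 0.43; edgeR unadjusted p = 0.404).

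**Figure D3:**
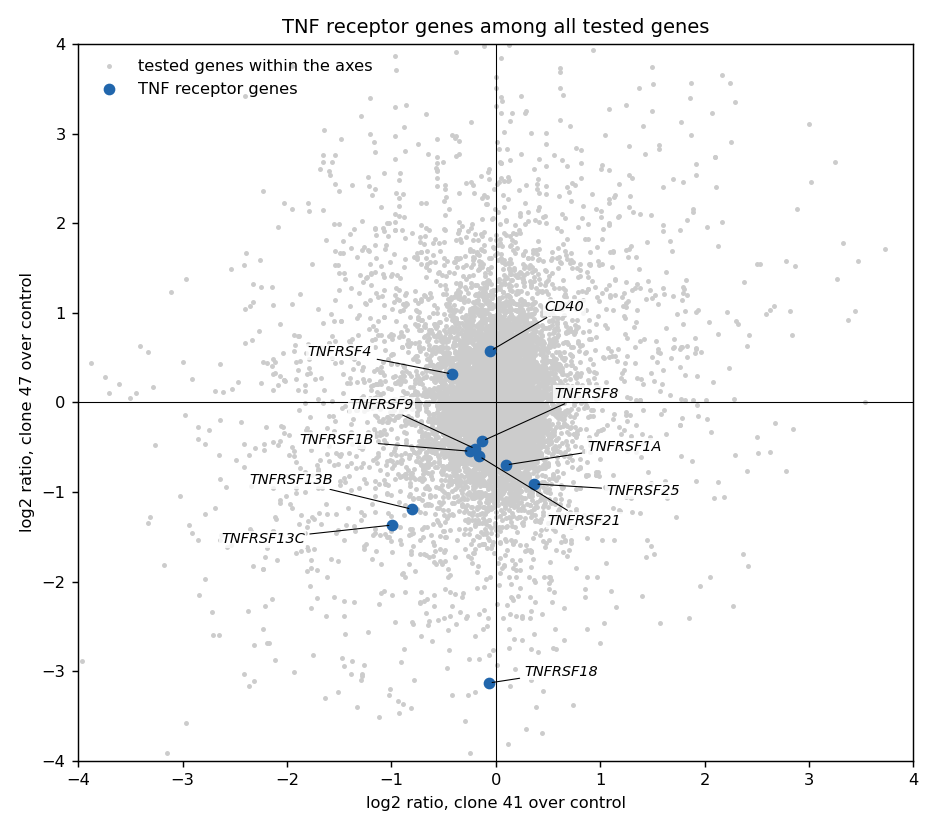
Log2 ratio to the control of knock-in clone 41 (horizontal axis) and clone 47 (vertical axis) for all tested genes within 4 units of 0 on both axes (grey) and for the 11 TNF receptor genes (blue, named). TNFRSF13B and TNFRSF13C lie in the lower left, TNFRSF18 lies at -3.13 in clone 47, and most of the others lie below 0 in clone 47.

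Set against all tested genes, 7 of the 11 receptor genes were below the control in both clones, where 25.9% of all tested genes were. These were TNFRSF21, TNFRSF8, TNFRSF13B, TNFRSF9, TNFRSF1B, TNFRSF18 and TNFRSF13C. Of these 7, TNFRSF18 and TNFRSF13C had intervals in clone 41 that include 1. On FPKM the count was 8, with TNFRSF1A added. None of the 11 was above the control in both clones (25.9% of all tested genes), and 4 lay on opposite sides (48.1%), of which only TNFRSF25 had intervals that exclude 1 in both clones. At least 2-fold lower than the control in clone 47 were 3 of the 11, TNFRSF13B, TNFRSF18 and TNFRSF13C (7.57% of all tested genes), and 0 were at least 2-fold higher (9.42%). Clone 41 had 0 of the 11 at least 2-fold lower (5.55% of all tested genes) and 0 at least 2-fold higher (3.2%). These counts use log2 CPM with a prior count of 2, which pulls ratios of low counts towards no change. By this measure TNFRSF13C, at a log2 ratio of -0.99, lay just short of 2-fold in clone 41. Without the prior count its ratio was 0.456 in clone 41 and 0.329 in clone 47. In both clones at once, 0 of the 11 were at least 2-fold lower (1.45% of all tested genes) and 0 at least 2-fold higher (1.39%). Each clone had 9 of the 11 below the control, where 50.1% of all tested genes were below it in clone 41 and 49.8% in clone 47. The clones share the control library, so these counts are not independent. Between the clones, TNFRSF25 and TNFRSF18 were at least 2-fold lower in clone 47 than in clone 41 (8.67% of all tested genes), 0 were at least 2-fold higher (12.2%), and 9 were lower by any amount (48.3%). The median log2 ratio of the 11 was -0.16 in clone 41 and -0.60 in clone 47, beside medians over all tested genes that rounded to -0.00 in clone 41 and 0.00 in clone 47. TNFRSF13C reached the filter's minimum count only in the control, where it was highest, so its place among the lower genes is partly set by the filter. Without it, 6 of 10 were below the control in both clones and 2 of 10 at least 2-fold lower in clone 47. The other genes past the count minimum, outside the 11, lay on opposite sides of the control. In clone 41 and clone 47, log2 ratios were 0.37 and -0.52 for TNFRSF11A, -0.11 and 3.98 for TNFRSF6B, and -1.60 and 0.59 for TNFRSF11B. Each had an interval that includes 1 in 1 of the clones. TNFRSF6B reached the filter's minimum count only in clone 47, where it was highest. The counts above thus depend on where the list was cut. In clone 47 the median of the 21 B cell markers was -0.57, close to that of the receptors, and in clone 41 it was 0.02.

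Genes with the most similar pair of log2 ratios to the control were sought by Euclidean distance, among 7911 other genes with a mean of at least 5 CPM. The nearest to TNFRSF13B were SGMS2, at a distance of 0.10 on the log2 scale, GIN1, at 0.11, and FBN1, at 0.13. SGMS2 encodes a sphingomyelin synthase and FBN1 the matrix protein fibrillin. Within a distance of 0.1 there were 0 genes for TNFRSF13B, with SGMS2 just past it. For TNFRSF21 there were 104, led by FRMD1, MARS and VPS13D. TNFRSF21 lay nearer the control in both clones, so these counts do not show how particular either pattern is. With 3 libraries such likeness is only a description.

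**Figure D4:**
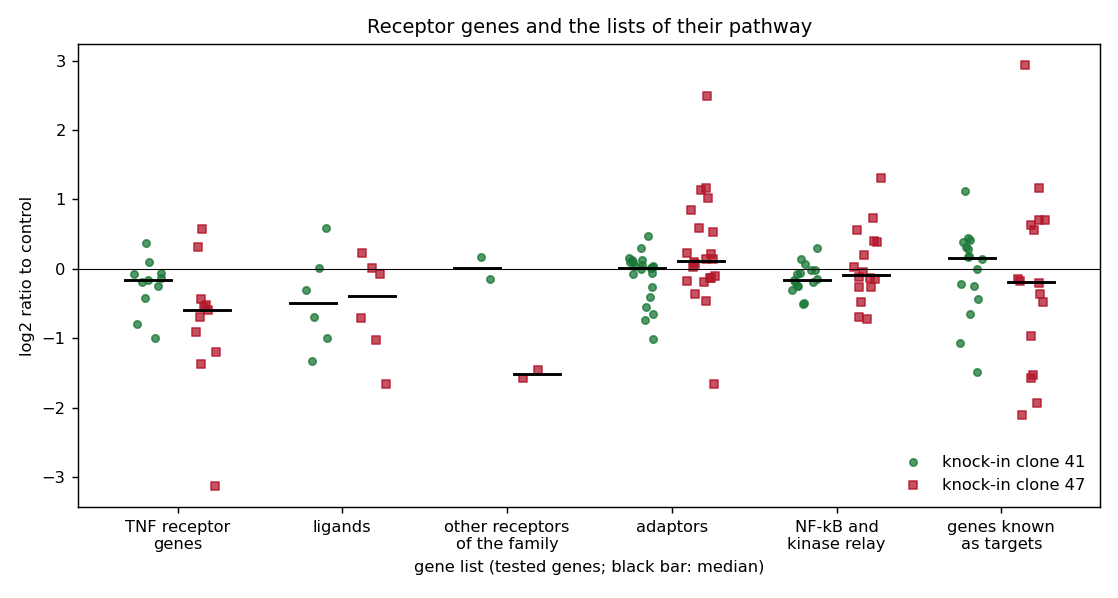
Log2 ratio to the control of the tested genes in knock-in clone 41 (circles) and clone 47 (squares) for the 11 TNF receptor genes and 5 lists of their pathway, with a black bar at the median. The receptors and the other receptors of the family lie lower in clone 47 than the adaptors and the NF-kB relay, whose medians stay within 0.16 of 0.

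The rest of the pathway was read from lists, none of which had a member past the edgeR test in either direction. Of the ligand list, 8 of 18 symbols were in the count table and 6 were tested, with 0 called higher and 0 lower. Their median log2 ratio was -0.50 in clone 41 and -0.39 in clone 47, with 3 below the control in both clones (25.9% of all tested genes). TNFSF10 (TRAIL), a death ligand, had 381 counts in clone 41 and 276 in clone 47, against 283 in the control. EDA, the ligand of ectodysplasin receptors, had 3684 counts in clone 41 and 4663 in clone 47, against 5060 in the control. In clone 47 its ratio to the control was 0.953 by counts and 0.757 by FPKM.

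FASLG, the death ligand of FAS, was named after its values were seen, because its receptor also differed in clone 47. It had 35 counts in clone 41 and 23 in clone 47, against 80 in the control. FAS, a death receptor outside the TNFRSF names, had 159 counts in clone 41 and 50 in clone 47, against 158 in the control. Its ratio was 1.12 in clone 41 (interval 0.894 to 1.41) and 0.327 in clone 47 (interval 0.233 to 0.452). RELT, the only other tested gene of that list, had 51 counts in clone 41 and 21 in clone 47, against 63 in the control. Clone 47 was thus the lowest library for both.

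Receptor adaptors, 22 tested of 27 listed, had 0 genes called higher and 0 lower. Their median log2 ratio was 0.02 in clone 41 and 0.12 in clone 47. Of the 22, 3 were below the control in both clones, 8 above it in both and 11 on opposite sides. Over all tested genes these shares were 25.9%, 25.9% and 48.1%. In clone 47, 4 were at least 2-fold higher than the control (9.42% of all tested genes) while 1 was at least 2-fold lower (7.57%). The 4 were TRAF4, TNFAIP3, CASP10 and TRAF3IP2. CASP10 and TRAF3IP2 were named after their values were seen. TRAF4 had 259 counts in clone 41 and 561 in clone 47, against 284 in the control. CASP8, the caspase recruited to death domain receptors, had 1765 counts in clone 41 and 3148 in clone 47, against 1802 in the control. Its ratio in clone 47 was 1.81, short of 2-fold. TRAF3IP3, which binds TRAF3, had 4087 counts in clone 41 and 1304 in clone 47, against 4243 in the control. In these 3 genes clone 41 stayed within 1.09 times of the control and clone 47 stood apart. TNFAIP3, the deubiquitinase A20 that ends NF-kB signalling, had 190 counts in clone 41 and 722 in clone 47, against 333 in the control, so the clones lay on opposite sides.

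The NF-kB and kinase relay, 16 tested of 21 listed, also had 0 genes called in either direction. Median log2 ratios were -0.16 in clone 41 and -0.08 in clone 47. Of the 16, 8 were below the control in both clones, 2 above it in both and 6 on opposite sides. Over all tested genes these shares were 25.9%, 25.9% and 48.1%. NFKBIE, an inhibitor that holds NF-kB in the cytoplasm, had 291 counts in clone 41 and 1093 in clone 47, against 455 in the control. REL, the NF-kB subunit prominent in B cells, had 3546 counts in clone 41 and 2637 in clone 47, against 4493 in the control. MAP3K1 had 3460 counts in clone 41 and 2399 in clone 47, against 4020 in the control, and CHUK, the IKK-alpha kinase, had 2491 in clone 41 and 2852 in clone 47, against 2257 in the control. REL was thus below the control in both clones and CHUK above it, while the ratio of MAP3K1 was 0.959 in clone 41, with an interval of 0.917 to 1.004 that includes 1, and 0.617 in clone 47. MAP3K14 (NIK), the kinase through which CD40 and the BAFF receptor reach the alternative NF-kB pathway, was used here from the FPKM table only and was named after its values were seen. It was at 12.7 FPKM in clone 41 and 18.5 FPKM in clone 47, against 23.5 FPKM in the control.

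Of the genes known as targets of these receptors in B cells, 16 were tested of 22 listed, with 0 called higher and 0 lower. Their medians were 0.15 in clone 41 and -0.19 in clone 47. Of the 16, 4 were below the control in both clones, 3 above it in both and 9 on opposite sides, near the shares over all tested genes (25.9%, 25.9% and 48.1%). In clone 47, 4 were at least 2-fold lower than the control (7.57% of all tested genes) and 2 at least 2-fold higher (9.42%). In clone 41 it was 2 lower (5.55%) and 1 higher (3.2%). Between the clones, 5 were at least 2-fold lower in clone 47 than in clone 41 (8.67%) and 2 at least 2-fold higher (12.2%). The 1 higher in clone 41 was CD86, named after its values were seen, which was also among these 5. It had 10 counts in clone 41 and 1 in clone 47, against 4 in the control. Its ratio in clone 41 was 2.79, with an interval of 0.804 to 12.2 that includes 1. CD86 reached the filter's minimum count only in clone 41, where it was highest, so both of its places are partly set by the filter. IRF4, a transcription factor induced through CD40, had 1752 counts in clone 41 and 671 in clone 47, against 2649 in the control. BCL2L1, which encodes the survival protein BCL-XL, had 3769 counts in clone 41 and 1632 in clone 47, against 4883 in the control. Both genes were lowest in clone 47 and intermediate in clone 41. CD83, an activation marker, had 73 counts in clone 41 and 1724 in clone 47, against 231 in the control, so the clones lay on opposite sides of it.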

How the data were processed

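RNA-seq libraries of the SRSF1-3 knock-in clones and of the control were compared. Per the labels' protocols, mRNA was enriched and sequenced from a strand-specific kit as 75-base paired ends. The build galGal4 and the tools Cufflinks 2.2.1, Cuffdiff, Bowtie and TopHat2 are named, without their roles, per the submitters' processing notes. The sources used here do not name the counter, its annotation release or its strand setting, so reads of overlapping or antisense genes could not be told apart. The deposited counts are whole reads per gene, and the authors' deposited FPKM values are scaled by length and library size.

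From the counts, filterByExpr (minimum count 10, minimum total 15) kept 10203 genes, including all 11 receptor genes. These were scaled by TMM and fitted with edgeR 4.0.16 (glmQLFit with the newer estimator, glmQLFTest). The same fit was also run on simulated data, with results that are not given here. Alternatives used the legacy estimator, DESeq2 1.42.0, other scalings, no filter, and limma 3.58.1 on log2(FPKM + 1). Single clones were compared by ratios with exact conditional binomial intervals. A 2-fold difference was read from log2 CPM (prior count 2). Depth leaves a floor of 3 counts, or 0.0666 to 0.0742 CPM per library.

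Genes were matched by symbol as the files give it. The receptors and lists were chosen with earlier results of these data known. From each pathway list, up to 4 genes with a mean of at least 5 CPM and the largest fitted change were named, and others are marked as chosen later. A gene that this rule names is not reported here. No receptor sequences are printed.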

Additional observations from a re-analysis of the deposited data

How the results depend on the processing

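Across all genes, the count past the threshold was 0 in the edgeR fit, with DESeq2 size factors or total counts as the scaling, without the filter on low counts, and with limma on unfiltered log2(FPKM + 1). It was 2 with the legacy estimator, 2 with DESeq2, 12 with limma on log2(FPKM + 1) and 10 on log2(FPKM + 0.1), and 0 receptor genes were called in any of these fits, which tested 11 of them, or 10 in the limma fits on filtered FPKM, where TNFRSF13C was not tested. The log2 fold change of TNFRSF4, reported as 0.00, was -0.0044 with the legacy estimator and -0.0010 without the filter. Leaving out 1 clone gives the other clone's log2 ratio, with no test. By this, CD40 ranged from -0.053 to 0.57, TNFRSF25 from -0.91 to 0.37, TNFRSF1A from -0.70 to 0.094 and TNFRSF4 from -0.42 to 0.32. TNFAIP3 ranged from -0.65 to 1.16, TRAF3IP3 from -1.65 to 0.10, NFKBIE from -0.49 to 1.31 and CD83 from -1.48 to 2.94. For each of these 8 genes the log2 ratios of the clones thus differed in sign. The counting interval includes 1 for CD40 and TNFRSF1A in clone 41 and for TNFRSF4 in both clones, so those signs are not settled. The cause of the differences was not tested. In clone 41, 1 receptor gene (TNFRSF13C) was at least 2-fold lower with total counts, and 1 with a prior count of 0.5, against 0 as reported. In clone 47 the count was 3 under each scaling, prior count and on FPKM. The number of receptor genes below the control in both clones was 7 under DESeq2 size factors, total counts and a prior count of 0.5, and 8 on FPKM, alternatives chosen after seeing the data, as was leaving out TNFRSF13C. Between the clones, 2 genes were at least 2-fold apart under each count scaling and 3 on FPKM. No paired analysis was possible because the control is a single library and the labels number no replicates. Depth limits TNFRSF13C most.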

Other observations

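Further genes of the family fell outside the 11. TNFRSF6B, a soluble decoy receptor for FASLG in humans, had 4 counts in clone 41 and 106 in clone 47, against 5 in the control. Clone 47 alone was high, at 21.9 times the control (interval 9.10 to 68.9), and by FPKM at 11.0 times. TNFRSF6B reached the filter's minimum count only in clone 47, so its being tested is partly set by the filter. The ratio also rests on only 5 counts in the control. TNFRSF11A (RANK) had 108 counts in clone 41 and 62 in clone 47, against 93 in the control, a ratio of 0.689 in clone 47 (interval 0.491 to 0.960). TNFRSF11B (osteoprotegerin), the decoy receptor of the RANK ligand, had 2 counts in clone 41 and 17 in clone 47, against 11 in the control, and TNFRSF19 had at most 2 counts in any library.

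Among adaptors below the level set for naming, TRAF3IP2 (Act1), which negatively regulates CD40 and BAFF signalling in mice, had 41 counts in clone 41 and 270 in clone 47, against 48 in the control. Its ratio in clone 47 was 5.81 (interval 4.26 to 8.08). It was picked out after its values were seen, and it did not pass the test (fitted log2 fold change 1.77, SE 1.12).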
